A study of Homo sapiens with 4 samples.

Results

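FNDC3A and FNDC3B are paralogous human genes whose circular RNAs were followed here in a radiation-resistant breast cancer line with and without knockdown of HNRNPL. The members were all back splices in the deposited count table whose gene field names FNDC3A or FNDC3B and that are not annotated as antisense. They made up 138 of 211599 entries, and 125 of them had at least 1 count in the 4 libraries, with 839 counts in all. FNDC3B gave 82 of these circles and 620 counts, and FNDC3A gave 43 circles and 219 counts. The genes were selected on the count differences between the knockdown and control libraries of this series, so their levels in knockdown and control are a description. Where the outcome of a fit over all genes or circles is printed for them, it stands beside the share of all features with that outcome and supports nothing about these genes.

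A circular RNA forms when the end of an exon, a splice donor, is joined backwards to the start of the same or an earlier exon, a splice acceptor. The result is a closed loop without free ends, and the loop is long-lived because exonucleases that attack linear RNA have no end to start from. Introns on both sides of the looped exons, and proteins bound there, are known to affect whether a back splice is made. HNRNPL is an RNA-binding protein that recognises CA-rich stretches and regulates both linear and back splicing. FNDC3A and FNDC3B encode membrane-anchored proteins built mostly of fibronectin type III domains, and a small circle of FNDC3B, circFNDC3B, has been studied in several cancers.

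The cells were MDA-MB-468, an established line of triple-negative breast cancer, made radiation resistant with a total of 50 Gy given in fractions. Both groups carry this treatment: 2 libraries come from resistant cells with a control hairpin (shCtrl), and 2 from resistant cells with 1 stable hairpin against HNRNPL. The replicates of each group are described as biological, with no word on whether they were separate lines, and cells that were never irradiated are not analysed here. Libraries were made by copying total RNA with a reverse transcriptase that can run around a circle repeatedly, amplifying the copies and reading them on nanopores. Amplified copies carry no molecular identifiers, so all intervals and floors below cover counting error only.

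Control replicate 1 held 472428 circular counts, control replicate 2 held 556578, knockdown replicate 1 held 282737 and knockdown replicate 2 held 390547. Levels are given as counts per 100000 circular counts of a library, and a count of 0 allows up to 0.635, 0.539, 1.06 and 0.768 per 100000, in that order. Control replicate 1 stood apart. In the deposited splice entry of many circles an asterisk stands beside the splice motif, and circles that carry it held 47.2% of its counts, where control replicate 2 had 26.4% and the knockdowns had 24.7% and 24.9%. The meaning of the asterisk is not given in the sources used here. Among all circles without it, 93.0% had both ends placed with no offset and 96.5% were of exon type. With it the shares were 20.5% and 37.1%. Each level below is therefore given for all circles and for the circles without an asterisk. No entry names HNRNPL, so the knockdown could not be checked in these data. Of the epithelial and breast line genes looked up, EGFR, EPCAM, CDH1 and KRT5 had 200, 40, 25 and 2 circular counts over the 4 libraries, and KRT8, KRT18 and KRT19 had 0. Of the genes of other cell types, VIM had 3 and PTPRC, COL1A1 and PECAM1 had 0, so circular counts at 0 do not separate the 2 lists and the label was not settled by them.

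FNDC3B (ENSG00000075420.13) lies on the plus strand of chromosome 3 at 172039578 to 172401669 (GRCh38.p14, gene span from RefSeq). Without an asterisk it gave 20 circles with 431 counts, all of exon type, all with the AG acceptor and GT donor motif and no offset. Laid out in order, the exons that these circles regularly contain number 24, and this order, which is not an annotated exon number, is used below. The circles were 271 to 3039 nt long with a median of 782 nt and a median of 5.5 exons. They used only 6 acceptors and 11 donors. The start of exon 5 was the acceptor of 5 circles with 285 of the 431 counts (66.1%), and the end of exon 10 was the donor of 6 circles with 228 counts (52.9%). The other leading ends were the acceptors of exon 1 (57 counts) and exon 4 (54 counts) and the donors of exon 5 (78 counts) and exon 9 (75 counts). Exon 5, of 282 nt, was inside 15 of the 20 circles, whether or not they began there, and these held 91.6% of the counts.

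FNDC3B output was concentrated in a few loops. The most abundant ran from exon 5 to exon 10 (chr3:172251260-172310881, 746 nt of exon sequence) and held 43.9% of the counts without asterisk, and the first 3 circles held 71.0%. The circle from exon 5 to exon 9 (chr3:172251260-172307501, 692 nt) used the same acceptor and the donor 1 exon earlier. The third, of exons 4 and 5 (chr3:172247533-172251541, 526 nt), has the exon number and length of the form usually studied as circFNDC3B. A retained-intron isoform of it, 4009 nt long, was listed at the same back splice. The acceptor of exon 5 is preceded by an intron of 3483 nt, and the donors of exons 5 and 10 are followed by introns of 34384 and 18070 nt.

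FNDC3A (ENSG00000102531.16) lies on the plus strand of chromosome 13 at 48975291 to 49209779, and its circles without asterisk were spread more evenly. There were 20 such circles with 140 counts, and 18 of them were of exon type with the AG and GT motif and no offset. They used 13 acceptors and 10 donors. The most abundant circle, exons 19 to 22 (chr13:49196877-49198574, 761 nt), held 23.6% of the counts and the first 3 held 50.7%. This circle covers only 1698 nt of the genome, since its inner introns are of 734, 107 and 96 nt. The next were exons 1 to 7 (chr13:49006152-49145935, 1016 nt) and exons 8 to 12 (chr13:49167244-49175541, 553 nt), with 19 counts each. The donors most used were those of exon 22 (42 counts), exon 7 (36 counts) and exon 12 (21 counts), and the acceptors those of exon 19 (33 counts), exon 8 (28 counts) and exon 9 (25 counts). A circle of 2338 nt, with 2 counts in control replicate 2 and 0 elsewhere, matched the whole intron between exons 10 and 11; it was singled out after its values were seen.

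The paralogues share their exon layout, but hardly any of the back splices detected were common to both. When the 24 exons of FNDC3B and the 22 of FNDC3A were set side by side in order, 15 of 22 had the same length, and 6 of the 7 that differed did so by a multiple of 3 nt, with a largest difference of 12 nt. Of the 20 pairs of first and last exon joined in FNDC3B and the 18 joined in FNDC3A, 1 was common to both, which is 5.00% and 5.56% of the lists. That pair, exons 1 to 7, was an FNDC3A circle with 19 counts and an FNDC3B circle with 2. Of single ends, the acceptors of exons 1, 3, 4 and 7 and the donor of exon 7 were used in both genes. The median circle had 5.0 counts in FNDC3B and 3.5 in FNDC3A, so rare shared pairs could be missed at this depth. Exon 5, the acceptor of most FNDC3B counts, was the first exon of none of the FNDC3A circles without asterisk, and was inside circles with 27.1% of their counts. In their first listed isoform, 19 of 20 FNDC3B circles and 18 of 18 FNDC3A circles with both ends on ordered exons were made of exactly the ordered exons from first to last. The other circle, of FNDC3B exons 1 and 2, held both and an extra exon of 89 nt that no other circle without asterisk had.

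FNDC3B circles were less abundant in both knockdown libraries than in both controls. Over all its circles FNDC3B had 224 and 271 counts in the control libraries and 45 and 80 in the knockdown libraries. These are 47.4 and 48.7 per 100000 against 15.9 and 20.5, or 48.1 ± 0.902 against 18.2 ± 3.23 (SD, n = 2 each), a ratio of 0.379, and the groups did not overlap. Without asterisk the counts were 111, 224, 32 and 64, or 31.9 ± 11.8 against 13.9 ± 3.58 per 100000 (SD, n = 2 each), a ratio of 0.435. The groups again did not overlap, though the controls were then further apart, at 23.5 and 40.2 per 100000. As a share of asterisk-free counts alone the controls came closer, at 44.5 and 54.7 per 100000, with the knockdowns at 15.0 and 21.8. The libraries are from bulk RNA, so fewer cells with these circles and fewer circles per cell cannot be told apart, and linear FNDC3B RNA was not measured.

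In an edgeR quasi-likelihood fit over 5911 host genes, on circles naming a single gene, the log2 fold change of FNDC3B in knockdown was -1.11 ± 0.37 (SE), with the median host gene at -0.27. Of the host genes, 24.48% had a lower value. FNDC3B was not past an adjusted p of 0.05, which 1.51% of host genes passed, and both knockdowns lay below both controls in 36.1% of host genes. Without asterisk the log2 fold change was -1.14 ± 0.35 (SE), with the median host gene at -0.13. Among the alternatives tried, FNDC3B was past that threshold only when control replicate 1 (-1.14) or control replicate 2 (-0.85) was left out. In those fits 27% of 4665 and 38.4% of 5413 host genes were past it as well. The choice of the gene used this contrast, so nothing is read from these counts.

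**Figure D1:**
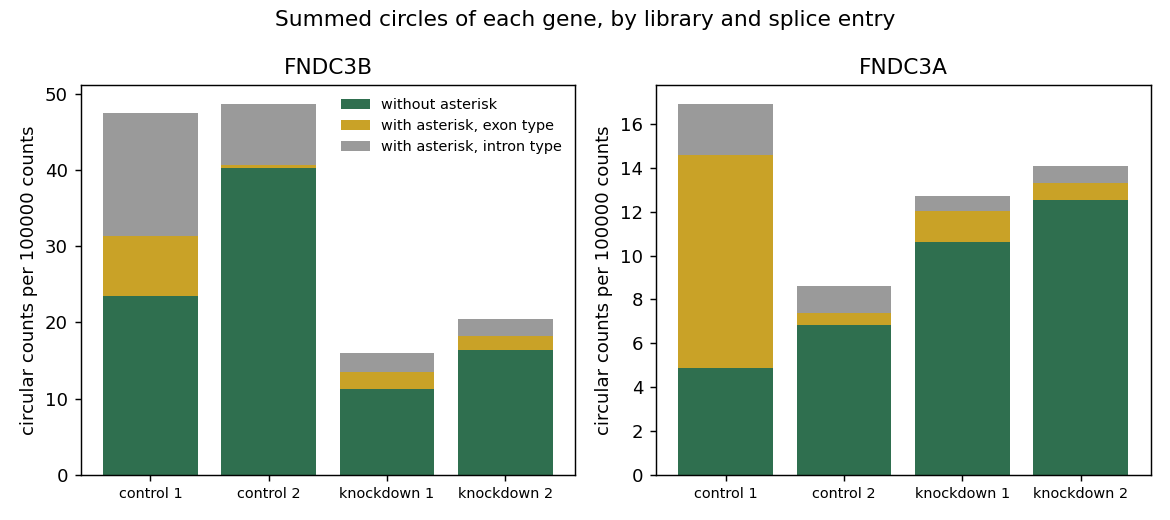
Summed circles of FNDC3B (left) and FNDC3A (right) in counts per 100000 circular counts of each library; stacked bars show circles without asterisk (green), with asterisk of exon type (yellow) and with asterisk of intron type (grey), 1 bar per library. FNDC3B is lower in both knockdowns in total and in green, and FNDC3A is higher in both knockdowns only in green. Circles with an asterisk make up 71.2% of its counts in control replicate 1.

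Both leading loops of FNDC3B had lower values in each knockdown. The circle of exons 5 to 10 had 58 and 88 counts in the controls, and the knockdowns had 14 and 29, or 14.04 ± 2.50 against 6.19 ± 1.75 per 100000 (SD, n = 2 each), and its fitted log2 fold change was -1.21 ± 0.39 (SE). The circle of exons 5 to 9 had 20, 41, 5 and 9 counts and a log2 fold change of -1.51 ± 0.49 (SE). In both circles each control was above each knockdown. The circFNDC3B form of exons 4 and 5 had 7 and 25 counts in the control libraries and 1 and 9 in the knockdown libraries, so its groups overlapped, with a log2 fold change of -1.07 ± 0.89 (SE). The 818-nt circle of exons 1 to 5 (3, 21, 3 and 5 counts; -0.87 ± 0.90, SE) and the 464-nt circle of exons 6 to 10 (3, 11, 1 and 3 counts; -1.14 ± 1.10, SE) overlapped as well. In all 3 circles control replicate 2 had the most counts, and single libraries decided the values. The log2 fold change of the 526-nt circle was -0.17 without control replicate 2, -0.19 without knockdown replicate 1 and -2.86 without knockdown replicate 2. That of the 818-nt circle was 0.72 without control replicate 2, and that of the 464-nt circle was -0.57 without knockdown replicate 1. The longer circle of exons 5 to 14 (1272 nt) had 5 and 6 counts in the controls and 0 in both knockdowns, where the depth allows up to 1.06 and 0.768 per 100000, while the controls were at 1.06 and 1.08, so a difference from knockdown replicate 1 was not detectable at this depth. Of the rarer loops, exons 1 to 10 (1282 nt) and exons 5 to 8 (553 nt) each had 2, 5, 0 and 1 counts, and exons 1 and 2 (304 nt) had 7 counts in control replicate 2 and 0 elsewhere.

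FNDC3B circles were split, after the values were seen, into those from exons 1 to 4, from exon 5 and from exon 6 or later. Of these sets only that from exon 5 separated the groups. Circles from exon 5 had 86, 140, 20 and 39 counts, a knockdown-to-control ratio of 0.393 in counts per 100000. Circles from exons 1 to 4 had 20, 70, 9 and 21 counts and a ratio of 0.509, with overlapping groups. Circles from exon 6 or later had 5, 14, 3 and 4 counts and a ratio of 0.583, and overlapped too. Within that set, circles from exon 6 alone had 4, 14, 1 and 3 counts, with both knockdowns below both controls. The circle from exon 7 went the other way, with 1, 0, 2 and 1 counts. The share of FNDC3B counts without asterisk that began at exon 5 was 77.5% and 62.5% in the controls, and the knockdowns had 62.5% and 60.9%, so both knockdown shares were at or just below that of control replicate 2.

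For FNDC3A the outcome depended on whether circles with an asterisk were counted. Over all circles it had 80 and 48 counts in the control libraries and 36 and 55 in the knockdown libraries, which are 16.9 and 8.62 against 12.7 and 14.1 per 100000, or 12.8 ± 5.88 against 13.4 ± 0.955 (SD, n = 2 each). Both knockdowns lay between the 2 controls. Without asterisk the counts were 23, 38, 30 and 49, or 4.87 and 6.83 against 10.6 and 12.5 per 100000. The means were then 5.85 ± 1.39 and 11.6 ± 1.37 (SD, n = 2 each), a ratio of 1.98, and the groups did not overlap. The knockdowns lay above the controls in this way in 24.4% of 3498 host genes tested without asterisk, and below them in 31.4%. As a share of asterisk-free counts the controls were at 9.23 and 9.28 per 100000 and the knockdowns at 14.1 and 16.7. The fitted log2 fold change was 0.49 ± 0.42 (SE) over all circles naming FNDC3A alone and 1.14 ± 0.39 (SE) without asterisk. With libraries scaled to their total counts in place of edgeR's TMM factors the value over all circles was 0.13, and the median host gene moved from -0.27 to -0.59. FNDC3A was past an adjusted p of 0.05 in edgeR only without control replicate 1, at 0.95, a fit in which 27% of host genes were past it.

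**Figure D2:**
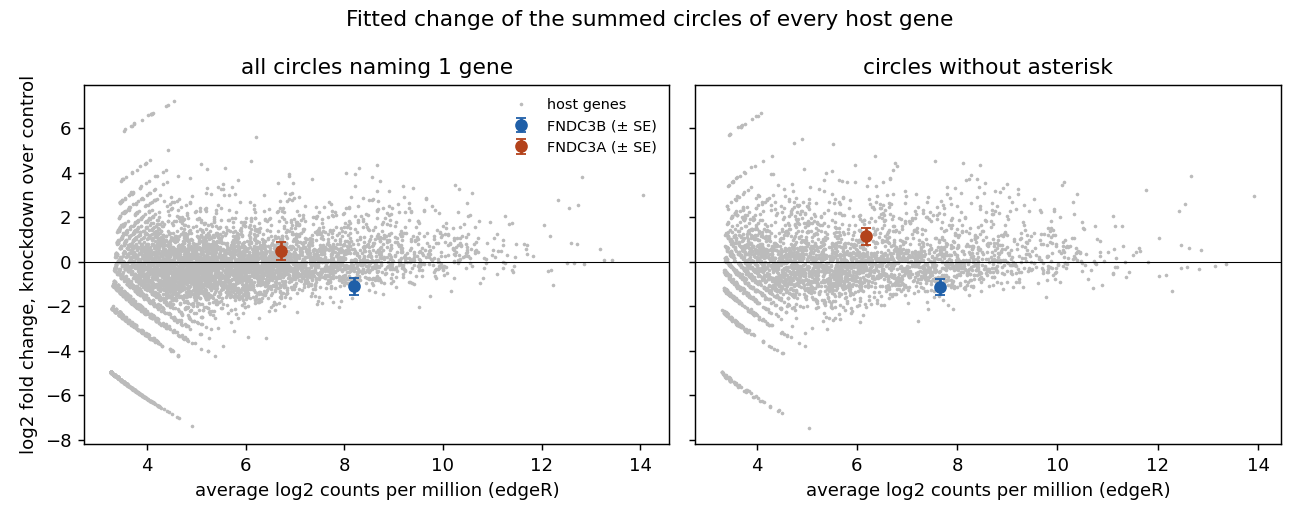
Fitted log2 fold change of knockdown over control (y axis) against the average log2 abundance (log2 CPM) from edgeR (x axis) for the summed circles of each host gene, over all circles naming 1 gene (left) and circles without asterisk (right); grey points are host genes and coloured points with bars are FNDC3B and FNDC3A ± SE. FNDC3B lies at -1.11 and -1.14 and FNDC3A at 0.49 and 1.14, each within the cloud of other host genes.

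The higher FNDC3A values were those of loops that begin at exon 8 or 9, though not of every such loop. The 553-nt circle of exons 8 to 12 had 0 and 2 counts in the controls, and the knockdowns had 6 and 11, with a log2 fold change of 3.53 ± 1.13 (SE). That value was 2.86 with control replicate 1 left out and 6.22 with control replicate 2 left out. The 580-nt circle of exons 9 to 13 (chr13:49168613-49178654) had 0, 1, 5 and 5 counts and 3.65 ± 1.56 (SE). In both circles each knockdown was above each control. The 907-nt circle of exons 9 to 16 had 6 and 2 counts in the knockdowns and 0 in both controls, which allows up to 0.635 and 0.539 per 100000 there. Knockdown replicate 2, at 0.512 per 100000, lies below both limits, so no difference from it was detectable. The 1189-nt circle of exons 9 to 18 went the other way in part, with 0 and 4 counts in the controls and 1 in each knockdown.

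Summed over the 7 circles that start at exon 8 or 9, FNDC3A had 2 and 9 counts in the control libraries and 19 and 23 in the knockdown libraries. These are 0.423 and 1.62 against 6.72 and 5.89 per 100000, or 1.02 ± 0.844 against 6.30 ± 0.587 (SD, n = 2 each), a ratio of 6.18. They made up 8.70% and 23.7% of the FNDC3A counts without asterisk in the controls, and the knockdowns had 63.3% and 46.9%. This grouping by first exon was made after the values were seen. For circles starting on the other ordered exons, summed over exons 1 to 7 and over exon 10 or later, the groups overlapped. Taken alone, the circle starting at exon 4 had 1, 2, 0 and 0 counts, with both knockdowns below both controls. Circles that start at exons 1 to 7 had 9, 14, 6 and 13 counts, or 2.21 ± 0.432 against 2.73 ± 0.853 per 100000 (SD, n = 2 each). Those that start at exon 10 or later had 11, 13, 5 and 13 counts, or 2.33 ± 0.00516 against 2.55 ± 1.10 per 100000 (SD, n = 2 each). Exon 8 is preceded by an intron of 21308 nt and exon 9 by one of 1309 nt, and the donors of exons 12 and 13 are followed by introns of 3026 and 7309 nt.

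**Figure D3:**
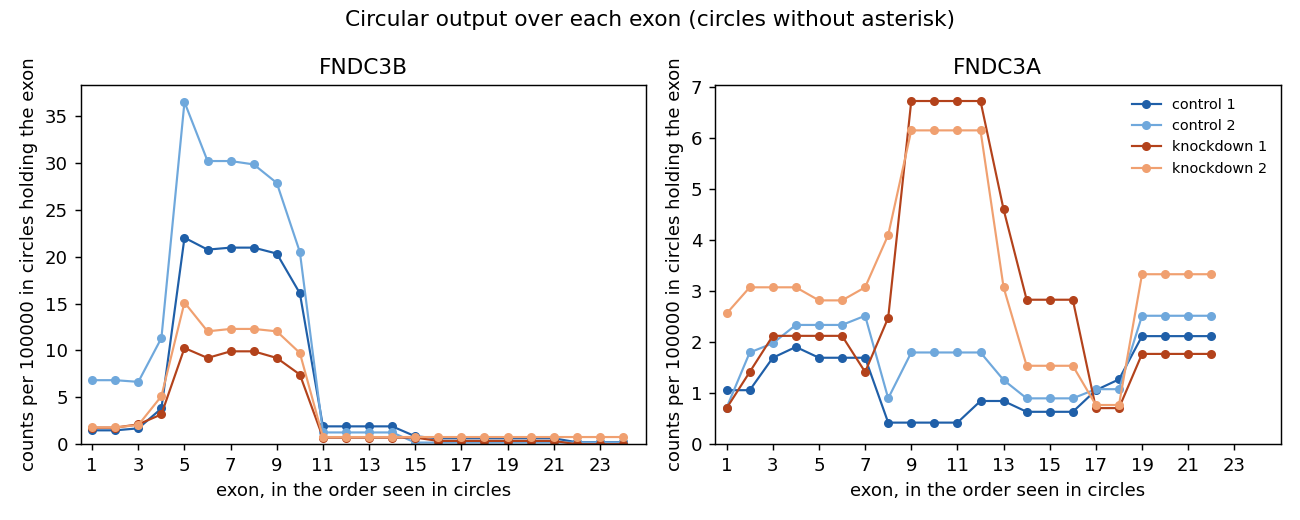
Counts per 100000 in circles without asterisk that contain each exon (y axis), by exon order (x axis), for FNDC3B (left) and FNDC3A (right), 1 line per library. In FNDC3B both control lines lie above both knockdown lines from exon 5 to exon 14, though exons 11 to 14 rest on 9, 7, 2 and 3 counts. In FNDC3A both knockdown lines lie above both control lines from exon 8 to exon 16 and at exon 3, below both at exons 17 and 18, and overlap them at the other exons.

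The remaining FNDC3A circles that were named by abundance did not separate the groups. The 761-nt circle of exons 19 to 22 had 6, 12, 4 and 11 counts and a log2 fold change of 0.29 ± 0.66 (SE). The 1016-nt circle of exons 1 to 7 had 4, 4, 2 and 9 counts and 0.89 ± 0.96 (SE). Both values rested on knockdown replicate 2 and were -0.20 and -0.12 without it. The 878-nt circle of exons 2 to 7 had 0, 6, 2 and 2 counts and 0.20 ± 1.99 (SE), which was -0.66 without control replicate 1 and -0.038 with no filter on low counts. The 1043-nt circle of exons 17 to 22 had 2, 1, 1 and 2 counts.

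**Figure D4:**
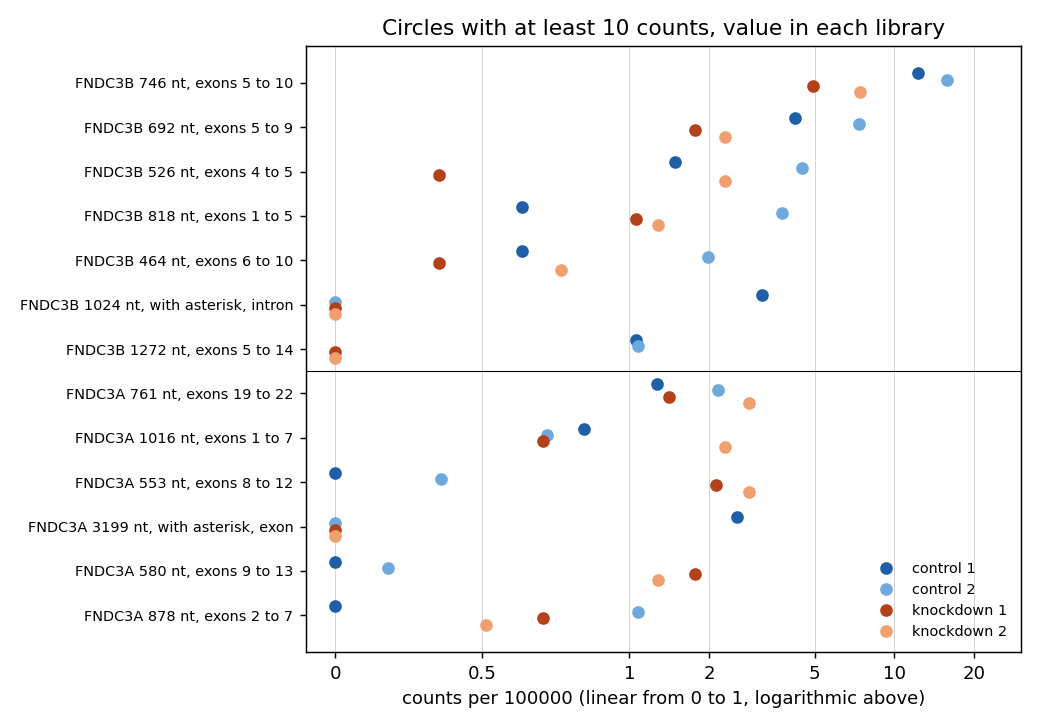
Counts per 100000 in each library (x axis, linear from 0 to 1 and logarithmic above) of the 13 circles with at least 10 counts, 7 of FNDC3B above the line and 6 of FNDC3A below it; each point is 1 library. Both controls lie to the right of both knockdowns for 3 FNDC3B circles, and both knockdowns to the right of both controls for the FNDC3A circles of exons 8 to 12 and 9 to 13.

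Circle by circle the counts were small. Of the 125 members with counts, 13 reached the 10 counts required for the fit over 21576 circles, 7 from FNDC3B and 6 from FNDC3A. None passed an adjusted p of 0.05 in edgeR, as did 0% of all circles tested, and 3 had an unadjusted p under 0.05, as did 2925 of all circles. DESeq2 called none of the 7 members to which it gave an adjusted p, and 5.03% of all circles. Leaving out control replicate 1 gave 3 calls among 10 members tested, where 28.2% of all circles were called. Leaving out control replicate 2 gave 5 of 10, where 43.4% of all circles were called, so both shares were near the background. A filter of 5 counts in each of 2 libraries gave 1 of 8, where 12.1% of all circles were called. That member, the FNDC3A circle of exons 8 to 12, passed the filter only through the 2 knockdowns in which it was high. Members with both knockdowns below both controls numbered 3, and with both above 2, where 22.9% and 23.2% of all circles did so. The 2 above, the FNDC3A circles of exons 8 to 12 and 9 to 13, reached 10 counts only through the knockdowns. Of the 3 below, the FNDC3B circle of exons 5 to 14 reached it only through the controls, so nothing is read from these numbers. The fitted values were lower in knockdown for 8 members and higher for 5, and lower for 13004 of all 21576 circles. Among members without asterisk 6 were lower and 5 higher, with 7768 of all 14905 such circles lower. The median of all members tested was -1.07 against -0.41 over all circles, and it was 0.23 without control replicate 2.

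The ratio of FNDC3A to FNDC3B counts within a library needs no scaling between libraries. Over all circles it was 0.357 and 0.177 in the control libraries and 0.800 and 0.688 in the knockdown libraries. Without asterisk it was 0.207 and 0.170 against 0.938 and 0.766, or 0.188 ± 0.0266 against 0.852 ± 0.122 (SD, n = 2 each). For every FNDC3B count, each knockdown library thus had more FNDC3A counts than either control. With 2 libraries against 2, the smallest exact two-sided permutation p is 0.333, and no test is given for this ratio, which was read from the contrast that chose the genes.

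The weight of the leading loop and the size of the loops were compared as well. The leading circle held 27.0% and 37.6% of the FNDC3B counts in the controls, and the knockdowns had 35.9% and 39.7%, over circles that name 1 gene, with exact 95% intervals of 21.2 to 33.4, 31.4 to 44.2, 21.2 to 52.8 and 28.5 to 51.9. Without asterisk the shares were 55.2%, 47.1%, 53.8% and 50.9%. The mean number of exons per FNDC3B count was 4.17 and 4.39 in the control libraries and 5.15 and 5.22 in the knockdown libraries. Without asterisk it was 6.00, 5.18, 6.15 and 5.84 and the groups overlapped, so the separation was not seen once circles with an asterisk were left out. For FNDC3A the leading circle held 9.68%, 34.3%, 12.9% and 27.5% and the mean exon number was 9, 4.51, 6.13 and 5.58, and neither separated the groups. Without asterisk both did. The leading circle held 33.3% and 42.9% of the control counts and 15.4% and 29.7% of the knockdown counts. Exact 95% intervals, on 18, 28, 26 and 37 counts, were 13.3 to 59.0, 24.5 to 62.8, 4.36 to 34.9 and 15.9 to 47.0, and all overlapped. The mean exon number was 5.33 and 5.39 in the controls, and the knockdowns had 5.85 and 5.43.

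Circles with an asterisk were many, and most were found in a single library. FNDC3B had 62 of them with 189 counts and FNDC3A 23 with 79 counts. Of these, 53 and 17 were in a single library, and 31 and 14 in control replicate 1 alone, while 2 and 5 of the 20 circles without asterisk of each gene were in a single library. No circle with an asterisk was found in all 4 libraries, against 5 FNDC3B and 3 FNDC3A circles without it. They held 50.4% of FNDC3B counts in control replicate 1 (exact 95% interval 43.7 to 57.2), 17.3% in control replicate 2, 28.9% in knockdown replicate 1 and 16 of 80 counts in knockdown replicate 2. For FNDC3A the shares were 71.2% (60.05 to 80.8), 20.8%, 16.7% and 10.9%. The library whose whole table is richest in asterisks was thus also the one where they weigh most in both genes, and their part in the group differences is shown by the asterisk-free values above.

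The asterisk circles lay in particular places. Among FNDC3B circles, 15 of intron type lay before the first ordered exon, with 25, 21, 1 and 3 counts, and 15 of exon type ended within 5 kb of the gene's end, with 34, 2, 6 and 7 counts. In FNDC3A, 6 circles of exon type ended within 5 kb of the gene's end, with 14, 0, 3 and 1 counts. No circle without an asterisk ended there in either gene. The most abundant were an FNDC3B intron circle of 1024 nt (chr3:172074656-172075679), with 15 counts in control replicate 1 and 0 elsewhere, and an FNDC3A circle of 3199 nt, with 12 counts in the same library and 0 elsewhere. Intron circles of FNDC3B as a whole had 76 and 45 counts in the control libraries and 7 and 9 in the knockdown libraries, or 12.1 ± 5.66 against 2.39 ± 0.121 per 100000 (SD, n = 2 each). The groups did not overlap, and all 45 of these circles carried an asterisk. Intron circles of all genes held 19.7% of the counts of control replicate 1. Control replicate 2, at 10.6%, lay close to the knockdowns, at 9.93% and 10.0%. Per 100000, FNDC3B intron circles stood at 8.09 in control replicate 2, against 2.48 and 2.30 for knockdown replicates 1 and 2. The all-gene share showed no gap of that size between these libraries. Whether the difference is particular to FNDC3B was not tested. The gene was chosen on this contrast, so nothing is read from its intron circles.

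The other FNDC genes looked up gave almost no circles. Of 10 FNDC genes looked up, 4 had a count, and beside the 2 members these were FNDC4 with 2 counts and FNDC7 with 1, all in control replicate 1. Of 30 hosts of widely studied circular RNAs, 25 were tested. The edgeR fit called 1 higher in knockdown and 0 lower, with 87 and 2 called among all 5911 host genes, and 11 had higher and 14 lower fitted values. Their median log2 fold change was -0.14 against -0.27 over all host genes. That order was reversed without asterisk, at -0.34 against -0.13.

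The host genes whose 4 library values lay nearest to those of FNDC3B were PIAS2, SEPSECS, DCAF1, PIKFYVE and CRKL. Likeness was the Euclidean distance between values of log2(counts per 100000 + 0.5), each gene centred on its mean, over 2042 genes with at least 100 counts, and ran from 0.0831 for PIAS2 to 0.169 for CRKL. PIAS2 had 216 and 247 counts in the controls, and the knockdowns had 38 and 75, beside 215, 234, 39 and 73 for FNDC3B over circles naming it alone. For FNDC3A the nearest were RACGAP1, HDAC9, RBPJ, PDCD6IP and CD44, at distances of 0.160 to 0.234. RACGAP1 had 136, 71, 71 and 92 counts, so its nearness includes the high value of control replicate 1. With 4 libraries such an order describes these libraries only.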

How the data were processed

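Per the labels' protocols, circular RNA was copied from total RNA with Induro reverse transcriptase, amplified with phi29 polymerase and sequenced on nanopores. The authors deposited raw counts per back splice, with isoforms of a back splice collapsed; every entry of the file names CIRI-long, and the submitters' processing notes name GRCh38.p14 and DESeq2. Versions and filters are not given in the sources used here. The circle length in nt, another column of that file, was deposited by the authors. A second deposited table, whose columns sum to 100000, holds the same counts scaled and was not used.

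Counts were summed per host gene over circles that name 1 gene and are not antisense (79.4% of counts). They were fitted with edgeR 4.0.16 (R 4.3.3; quasi-likelihood, TMM, group only) over all host genes, or all circles, with at least 10 counts, and p-values were adjusted by Benjamini-Hochberg. The scripts were tested on simulated data. Exact intervals are Clopper-Pearson. Same-numbered libraries showed little shared deviation (correlation 0.0706 over 4944 circles with at least 40 counts), and the main fits did not pair them. Whether the numbers mark a pairing was not settled. The controls differed from each other more than the knockdowns did (chi-square per circle 18.0 and 2.28), and neither pair of replicates agrees within sampling noise. Circles named in the text are the 12 with most counts per gene, and ends the 3 acceptors and 3 donors with most counts. The members, lists and rules were chosen with earlier results of these data known. Alternatives were another scaling, filter, tool or dispersion method, other rules for a gene's circles, and leaving out each library; those on the asterisk were chosen after seeing the data. Circle sequences were not used here.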

Additional observations from a re-analysis of the deposited data

Results flagged for a closer look

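Antisense circles were left out of the members. FNDC3A had 4 such circles, of which control replicate 1 had 2 counts, control replicate 2 had 0 and each knockdown had 4, a mean of 1.22 per 100000 in the knockdowns, above the control mean of 0.212. They hold 10 counts in all, no single library reaches 5, and the difference was not tested. The knockdown values of 1.41 and 1.02 per 100000 lie near the limits that a count of 0 would allow there, 1.06 and 0.768. For control replicate 2, the library with a count of 0, that limit is 0.539, below both knockdown values. The 29 antisense circles of FNDC3B with counts had 48, 23, 8 and 6 counts, and were not above the control level in the knockdowns.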

How the results depend on the processing

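The summed FNDC3B value was negative and the summed FNDC3A value positive under every scaling, filter, tool and circle rule tried. Leaving out each library gave -1.35 to -0.85 for FNDC3B and 0.29 to 0.95 for FNDC3A, which was at 1.09 over circles with at least 10 counts. The member circles past the threshold numbered 0 to 5 with a library left out, where 0% to 43.4% of all circles passed. Requiring 5 counts in 2 libraries gave 1, where 12.1% of all circles passed. The log2 ratio of FNDC3A to FNDC3B was 1.67 higher in knockdown, 1.19 to 2.14 with a library left out, and 2.36 over circles with at least 10 counts. The FNDC3B leading share was 5.52 percentage points higher (0.205 to 10.8 with a library left out), but -1.24 over every circle without asterisk that names the gene. The FNDC3A leading share was -1.78 points (-14.1 to 10.5 with a library left out; 10.5 without control replicate 2 and 5.52 without knockdown replicate 1), -23.0 over circles with at least 10 counts, and -15.5 or -10.9 without asterisk, over rows naming 1 gene or every row. The FNDC3B mean exon number was 0.91 higher (0.793 to 1.02), and 0.715 over every row that names it, 0.147 over circles with at least 10 counts, and 0.407 or 0.309 without asterisk, over rows naming 1 gene or every row. That of FNDC3A was -0.905 (-3.15 to 1.34; 1.34 without control replicate 1), -5.77 over circles with at least 10 counts, and 0.276 or 0.212 without asterisk. Single circles that changed sign were the FNDC3B circle of exons 1 to 5 (-1.48 to 0.72 with a library left out, 0.72 without control replicate 2) and the FNDC3A circles of exons 19 to 22 and 1 to 7 (-0.20 to 0.85 and -0.12 to 1.63, the lowest without knockdown replicate 2) and 2 to 7 (-0.66 without control replicate 1, -0.038 with no filter). The cause of these changes was not tested.

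With the replicate number as a block, FNDC3B and FNDC3A were at -1.12 and 0.53. Of the member circles 0 passed, where 1620 of all 21576 circles did, against 0 without the block. Of 5911 host genes 315 passed, against 89 without the block. Differences within same-numbered libraries gave 3.23 points for the FNDC3A leading share in pair 1 and 1.06 for its mean exon number in pair 2, each opposite in sign to the value without pairing. Calls over all host genes ran from 0 under the newer dispersion method to 326 with no filter over the fits on all 4 libraries, and from 26 to 2081 with a library left out. Depth limits single circles most: 3 FNDC3B circles and no FNDC3A circle held 40 counts.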
